A study of Mus musculus with 2 samples.

Results

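The complement components and regulators described here are 9 mouse genes chosen by name, namely *C1ra*, *C1s*, *C4b*, *C3*, *Cfb*, *Cfd*, *Serping1*, *Cd55* and *Cd59a*, out of 24421 rows of the count table. Of the 9 symbols, 8 matched a row exactly, and *C1s* was read from the row *C1s1*, for which RefSeq gives *C1s* as a synonym. Each cell type had 1 RNA-Seq library. Chondrocytes, the cells of cartilage, had been freed with collagenase from ribs of newborn mice and were used within 2 passages, and dermal fibroblasts had been freed with collagenase from newborn back skin. No strain, genotype or treatment was labelled for either library. With 1 library per cell type, no difference has a replicate check and no p-value is given. Each fold of the 9 genes carries a 95% Clopper-Pearson interval for counting error alone (no molecular identifiers are described, so reads are not independent molecules). Some folds of other genes are given without one.

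Complement is a cascade of plasma and tissue proteins that marks surfaces for removal and can pierce membranes. In the classical route, the recognition protein C1q activates the serine proteases C1r and C1s, which cleave C4 and C2 to form a convertase that cleaves C3. In the alternative route, factor D cleaves factor B bound to C3b, which amplifies the deposition of C3b. C1 inhibitor holds C1r and C1s in check, CD55 speeds the decay of the convertases, and CD59 blocks assembly of the membrane attack complex. The liver makes most of the complement of plasma, and mesenchymal cells, adipocytes and macrophages make several components locally.

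All 9 genes had higher scaled counts in dermal fibroblasts than in chondrocytes, as did 50.2% of all genes tested, and 6 of the 9 were over 2-fold higher there. Those 6 were *Cd55*, *Cfd*, *Cfb*, *Serping1*, *C1ra* and *C1s1*, each with its entire interval above 2-fold. *C3*, *C4b* and *Cd59a* were within 2-fold, and none of the 9 was over 2-fold higher in chondrocytes. Among the 14291 genes with at least 10 counts in 1 library or both, 16.2% were over 2-fold higher in dermal fibroblasts, and 11.8% were over 2-fold higher in chondrocytes. With the whole interval beyond 2-fold, the shares were 10.8% for dermal fibroblasts and 7.21% for chondrocytes. Among genes with at least 100 counts in 1 library or both, a count that each of the 9 reached, 13.3% were over 2-fold higher in dermal fibroblasts. The median log2 fold of the 9 genes, chondrocytes minus dermal fibroblasts, was -1.97, against a median of -0.0035 for all genes tested. The 9 genes were chosen with earlier results of these data known, so these comparisons describe them and do not test them.

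**Figure D1:**
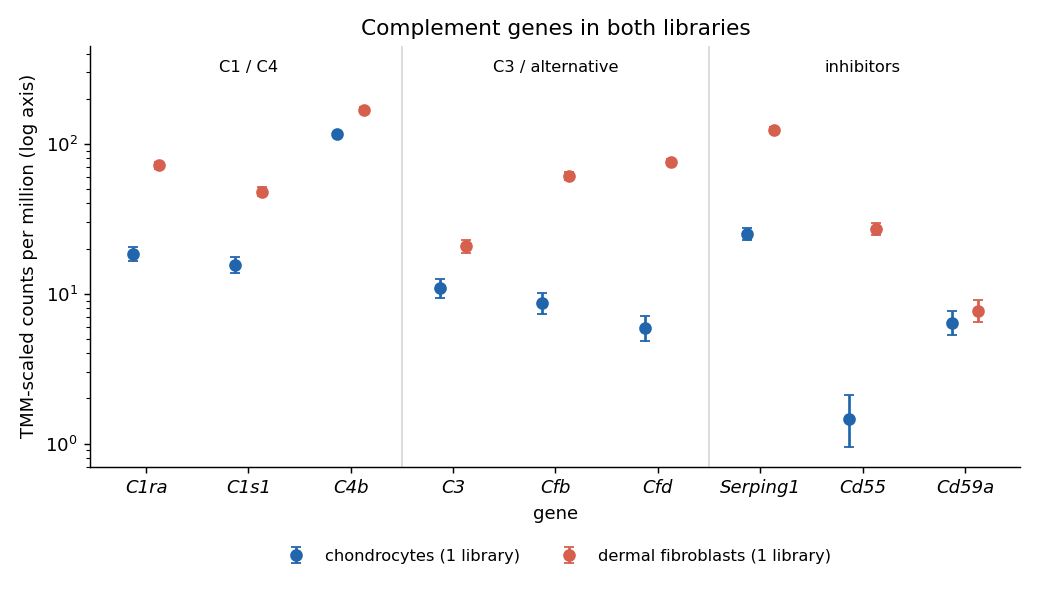
Level in CPM, counts per 1000000 TMM-scaled counts (log axis), of the 9 complement genes, ordered by role, in 1 library of chondrocytes (blue) and 1 library of dermal fibroblasts (red). Bars are exact 95% Poisson intervals. The point for dermal fibroblasts is the higher of each pair, by a wide gap for *Cd55* and with overlapping intervals for *Cd59a*.

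The libraries summed to 18788599 counts in chondrocytes and 17563724 counts in dermal fibroblasts. *Col2a1* alone took 7.70% of the chondrocyte counts, so the libraries were scaled with TMM factors (trimmed mean of M values), which are moved less by very abundant genes than totals are. The defining markers, *Lum* apart, went with the labels. Of 8 chondrocyte markers, 8 were over 2-fold higher in chondrocytes, and of 7 dermal fibroblast markers, 6 were over 2-fold higher in dermal fibroblasts. The shares of all genes tested were 11.8% and 16.2%. Markers of other cells were also present and are given beside the genes they touch. In such bulk libraries, fewer cells of a type and less RNA per cell cannot be told apart.

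Promoter sequence was at hand for 6 of the 9 genes in the RefSeq table (GRCm38.p6), and *C4b*, *Cfb* and *Serping1* had no entry. The 250 bases before each start listed in that table were searched on both strands for a STAT site (TTCNNNGAA), an interferon response element (TTTC, NN, TTTC), an NF-kB site (GGG, NN, TTTCC) and a C/EBP site (TTGCNNAA), where N is any base. These were held by 7.02%, 2.98%, 1.41% and 9.56% of all 32851 promoters. Matches were found in 3 of the 6 genes, a C/EBP match in *C3* and in 1 of the 2 promoters of *C1s1*, and an interferon response element match in *Cd59a*. A match describes letters and not a bound site. The starts listed for *C3*, *Cfd* and *C1ra* are the 5′ ends of their gene spans, whereas those for *Cd55*, *C1s1* and *Cd59a* lie inside the spans. For *Cd55* the whole window is internal, and the bases before the 5′ end of its span were not searched. The 100 bases before the listed start are shown for *C3*, whose match begins 45 bases before it, and for the 2 genes with the largest folds, *Cd55* and *Cfd*, in whose windows none of the 4 patterns was found. They are written 5′ to 3′ on the strand of the gene, and capitals mark the C/EBP match.
C3 (chr17:57228137-57228236, minus strand): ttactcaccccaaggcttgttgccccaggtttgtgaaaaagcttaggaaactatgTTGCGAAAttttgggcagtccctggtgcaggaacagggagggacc
Cd55 (chr1:130462745-130462844, minus strand, inside the gene span): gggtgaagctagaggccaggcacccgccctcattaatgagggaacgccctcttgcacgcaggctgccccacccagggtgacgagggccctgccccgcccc
Cfd (chr10:79890753-79890852, plus strand): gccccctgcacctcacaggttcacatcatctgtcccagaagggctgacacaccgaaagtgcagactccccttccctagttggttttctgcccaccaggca

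*C1ra* encodes the protease C1r, the first enzyme of the classical route (chromosome 6 of GRCm38, 124512621 to 124523440). It had 329 counts in chondrocytes and 1320 counts in dermal fibroblasts. This was 18.4 CPM against 71.7 CPM, a 3.91-fold difference with an interval from 3.46 to 4.42. *C1s1* encodes the protease C1s, which C1r activates, and lies in the same cluster (124530344 to 124542392). Its 278 chondrocyte counts compared with 883 in dermal fibroblasts, where it was 3.09-fold higher (interval 2.70 to 3.55). Transcripts of both proteases were therefore higher in dermal fibroblasts, *C1ra* more so than *C1s1*. The ratio of their folds, which does not depend on the scaling, was 1.26 (interval 1.05 to 1.52).

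The genes of the C1q chains, which bind C1r and C1s in the C1 complex, were much closer between the libraries. *C1qa* had 100 chondrocyte counts and 131 dermal fibroblast counts, a fold of 1.28 with an interval from 0.976 to 1.67. *C1qc* had 91 and 122 counts, a fold of 1.31 (interval 0.987 to 1.73). For each count of *C1qa* there were 3.29 counts of *C1ra* in chondrocytes and 10.1 in dermal fibroblasts, which differ by 3.06-fold (interval 2.27 to 4.12). C1q is made mainly by macrophages. Of 8 macrophage markers with at least 10 counts, 3 were over 2-fold higher in dermal fibroblasts, as were 16.2% of all genes tested. The summed level of the 9 markers listed was 116 CPM in chondrocytes and 205 CPM in dermal fibroblasts, with no marker at 0. The part of macrophages in the counts of the 9 complement genes was not tested.

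The mouse genome carries near copies of *C1ra* and *C1s1* in the same cluster, *C1rb* and *C1s2*. Of the 75-base windows inside exons of the *C1ra* transcript, 38.7% occurred a second time within 500 kb (NCBIM37), and for *C1s1* the share was 9.39%. Reads of that length from such windows cannot be assigned to 1 copy, and how the authors' counting treated them is not given in the sources used here. *C1rb* had 70 and 369 counts and was higher in dermal fibroblasts by 5.13-fold (interval 3.97 to 6.73), and *C1s2* had 30 and 83 counts and was 2.69-fold higher (interval 1.75 to 4.24). The copies thus differed in the same direction as the genes themselves. With the copies summed, *C1ra* and *C1rb* were 4.12-fold higher in dermal fibroblasts (interval 3.69 to 4.61) and *C1s1* and *C1s2* 3.05-fold higher (interval 2.68 to 3.48).

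*C4b* encodes C4, the substrate of C1s (chromosome 17, 34728139 to 34743902). Its counts were 2069 for chondrocytes and 3116 for dermal fibroblasts, or 115 and 169 CPM. The fold was 1.47 with an interval from 1.39 to 1.55, so the difference exceeded counting error but stayed under 2-fold. Its near copy *C4a*, which RefSeq lists as a transcribed pseudogene, had 74 and 86 counts, a fold of 1.13 (interval 0.820 to 1.57). Of the exonic windows of *C4b*, 21.9% occurred a second time nearby. *C4b* took 96.5% of the summed counts of both copies in chondrocytes (Clopper-Pearson interval 95.7 to 97.3) and 97.3% in dermal fibroblasts (interval 96.7 to 97.8).

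*C3* encodes the protein on which all routes converge (chromosome 17, 57203967 to 57228136). The chondrocyte library held 195 counts of it and the dermal fibroblast library 382, or 10.9 and 20.7 CPM. The fold was 1.91 with an interval from 1.60 to 2.28, which spans the 2-fold threshold. The call for *C3* depended on the scaling, since it was over 2-fold with 1 of the 6 scalings tried, at 2.10 with total counts. The other 8 genes kept their side of the threshold under all 6.

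*Cfb* encodes factor B, the zymogen of the alternative convertase, and lies in the same gene-dense region of chromosome 17 as *C4b* (34856374 to 34862514). With 155 chondrocyte counts against 1126 in dermal fibroblasts, it was 7.07-fold higher in the latter (interval 5.97 to 8.42). *Cfb* and *C3* work together in the alternative route but stood in different proportion. Each count of *C3* came with 0.795 counts of *Cfb* in chondrocytes and 2.95 in dermal fibroblasts, a difference of 3.71-fold (interval 2.89 to 4.75). The adjacent gene, *C2*, encodes the counterpart of factor B in the classical route. With 28 chondrocyte counts against 1408 in dermal fibroblasts, it was 49.0-fold higher in the latter (interval 33.7 to 74.0). *C2* thus lay far above *C4b* in its fold, although both proteins form the same convertase. For each count of *C4b* there were 0.0135 counts of *C2* in chondrocytes and 0.452 in dermal fibroblasts.

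*Cfd* encodes factor D, the protease that cleaves factor B, also known as adipsin for its abundance in adipocytes (chromosome 10, 79890853 to 79892655). Of *Cfd*, 106 counts came from chondrocytes and 1394 came from dermal fibroblasts, or 5.91 and 75.7 CPM. The fold was 12.8 with an interval from 10.5 to 15.8. This was larger than the fold of *Cfb*, with a ratio of folds of 1.81 (interval 1.39 to 2.37).

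Markers of adipocytes were also higher in dermal fibroblasts. Of 6 adipocyte markers with at least 10 counts, 4 were over 2-fold higher in dermal fibroblasts, as were 16.2% of all genes tested. Their median log2 fold was -2.20. The summed level of the 7 markers listed was 466 CPM in chondrocytes and 3397 CPM in dermal fibroblasts, with no marker at 0. Most of both sums came from *Lpl*, which encodes lipoprotein lipase, at 329 CPM in chondrocytes and 3055 CPM in dermal fibroblasts. *Adipoq*, which encodes adiponectin, had 136 and 1397 counts and differed by -3.32 on the log2 scale, chondrocytes minus dermal fibroblasts. The ratio of *Cfd* to *Adipoq* counts was 0.779 in chondrocytes and 0.998 in dermal fibroblasts, and the difference between these ratios did not exceed counting error (1.28-fold, interval 0.975 to 1.68). Against *Lpl*, the ratio of *Cfd* counts was higher in dermal fibroblasts by 1.38-fold (interval 1.13 to 1.70). Against *Cidec*, a lipid droplet gene, the ratio differed by 1.67-fold, which did not exceed counting error (interval 0.998 to 2.70). Other markers of the list did not follow. *Plin1*, which encodes the lipid droplet protein perilipin, had 607 and 562 counts and a fold of 0.901 (interval 0.802 to 1.01), and *Pparg*, which encodes the master regulator of adipocytes, had 427 and 610 counts and a fold of 1.39 (interval 1.23 to 1.58). *Fabp4*, a fatty acid carrier, lay between them and *Adipoq* at 2.74-fold (interval 2.57 to 2.93). The part of adipocytes in the *Cfd* counts was not tested.

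*Serping1* encodes C1 inhibitor, the secreted serpin that inactivates C1r and C1s (chromosome 2, 84765360 to 84775444). Chondrocytes gave 451 counts and dermal fibroblasts 2288 counts, or 25.2 and 124 CPM, a fold of 4.94 (interval 4.46 to 5.48). The transcripts of the inhibitor and of its targets were thus higher in the same library. The fold of *Serping1* exceeded that of *C1ra* by 1.26 times (interval 1.08 to 1.48) and that of *C1s1* by 1.60 times (interval 1.34 to 1.90).

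*Cd55* encodes the membrane anchored decay accelerating factor (chromosome 1, 130429798 to 130465009). Chondrocytes gave 26 counts and dermal fibroblasts 497 counts, or 1.45 and 27.0 CPM, the largest fold of the 9 genes at 18.6 (interval 12.5 to 28.8). The 26 counts were the lowest of any of the 9 genes in either library. An antisense gene, *Cd55os*, overlaps *Cd55* in RefSeq, and the strand setting of the counting is not given in the sources used here. *Cd59a*, on chromosome 2 (104095753 to 104115410), encodes the membrane inhibitor of the attack complex. Here 115 chondrocyte counts stood against 142 dermal fibroblast counts, for a fold of 1.20 with an interval from 0.934 to 1.55. The difference of *Cd59a* was within counting error. The near copies *Cd55b* (0 and 1 counts) and *Cd59b* (2 and 6 counts) had almost no reads, although 9.65% of the exonic windows of *Cd55* and 20.0% of those of *Cd59a* occurred a second time within 500 kb. For *C3*, *Cfb*, *Cfd* and *Serping1* no window did. The transcripts of the membrane inhibitors thus differed from each other, since *Cd55* lay first and *Cd59a* last in the order of folds.

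**Figure D2:**
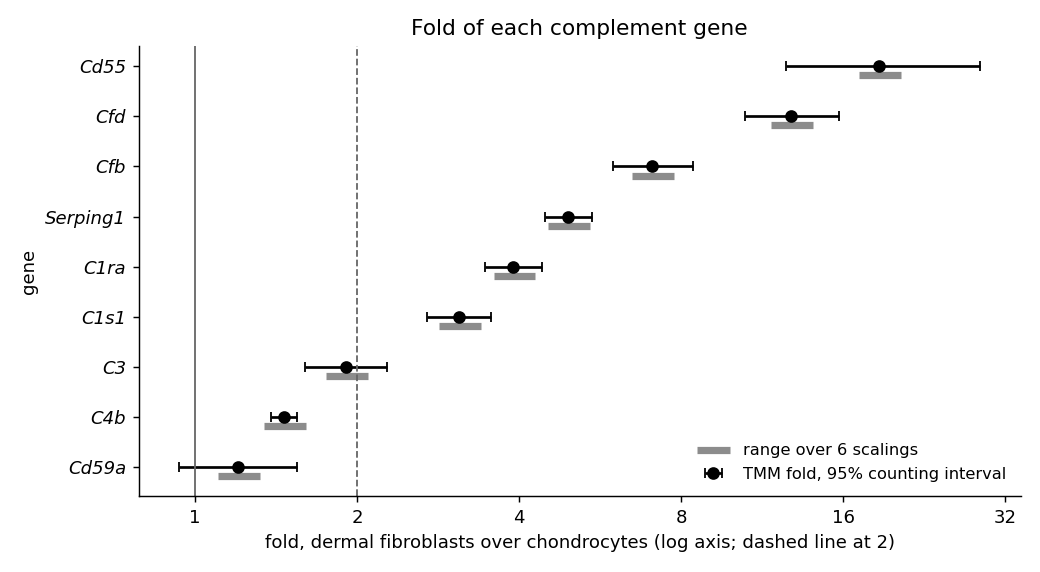
Fold of each complement gene, dermal fibroblasts over chondrocytes (log axis), with its 95% counting interval (black) and the range over 6 scalings of the libraries (grey). The dashed line marks 2-fold. The 6 genes from *Cd55* to *C1s1* lie wholly to its right, the interval of *C3* crosses it, and that of *Cd59a* crosses 1.

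The 9 folds were spread from 1.20 to 18.6. Of the 36 pairs of genes, 34 had folds that differed by more than counting error. The exceptions were neighbours in the order, *Cd55* with *Cfd* (ratio of folds 1.45, interval 0.926 to 2.36) and *C4b* with *Cd59a* (ratio 1.22, interval 0.939 to 1.58). *Cd55* and *Cfd* were over 10-fold higher in dermal fibroblasts, as were 2.03% of all genes tested, and *Cd55*, *Cfd*, *Cfb* and *Serping1* were over 4-fold higher, as were 6.50% of all genes tested. *Cd55* exceeded 99.1% of all genes tested in its fold, *Cfd* 98.5%, *Cfb* 96.8% and *Serping1* 95.1%. At the other end, *Cd59a* exceeded 64.2% of them.

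**Figure D3:**
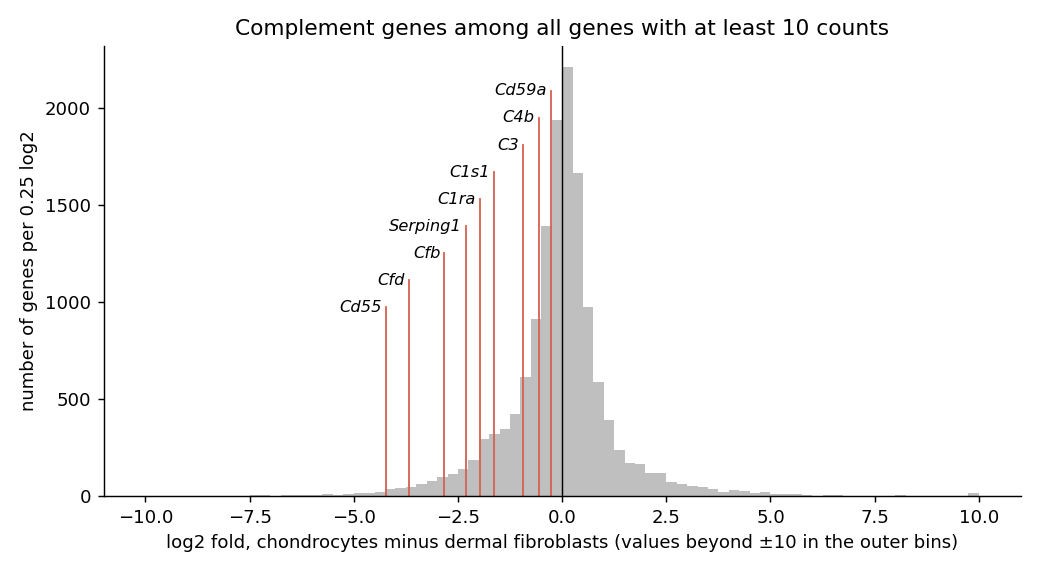
Number of genes by log2 fold, chondrocytes minus dermal fibroblasts (grey, 0.25 per bin), for the 14291 genes with at least 10 counts in 1 library or both, with the 9 complement genes as red lines. All 9 lines lie to the left of 0, *Cd55* at -4.22 and *Cd59a* at -0.27. The heights of the red lines only separate the names.

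The genes were ranked within each library by RPKM, the scaled counts per kilobase of the longest protein-coding transcript in GENCODE vM1. In chondrocytes *C4b* led at 21.5 RPKM (exact Poisson interval 20.5 to 22.4), followed by *Serping1* at 14.2, *C1ra* at 6.67, *Cfd* at 6.41, *C1s1* at 5.26, *Cd59a* at 3.55, *Cfb* at 3.14, *C3* at 2.12 and *Cd55* at 0.573. Neighbours in this order differed by more than counting error except *C1ra* with *Cfd*, *Cfd* with *C1s1*, and *Cd59a* with *Cfb*. In dermal fibroblasts *Cfd* led at 82.0 RPKM (interval 77.8 to 86.5), followed by *Serping1* at 70.3, *C4b* at 31.5, *C1ra* at 26.1, *Cfb* at 22.2, *C1s1* at 16.3, *Cd55* at 10.7, *Cd59a* at 4.27 and *C3* at 4.04. Of the neighbours in this order, only *Cd59a* and *C3* did not differ by more than counting error. Transcript isoforms change the length used, so these levels are approximate.

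The make-up of the 9 transcripts therefore differed between the libraries, whatever the scaling. Of their summed RPKM, *C4b* took 33.8% in chondrocytes and 11.8% in dermal fibroblasts, whereas *Cfd* took 10.1% and 30.7%. *Serping1* took similar shares, 22.4% and 26.3%, as did *C1ra*, at 10.5% and 9.75%. *C3* took 3.34% and 1.51%. The counts of all 9 genes summed to 3724 in chondrocytes and 11148 in dermal fibroblasts, which after scaling differ by 2.91-fold (interval 2.81 to 3.03). Without *C4b*, which held 55.6% of the counts of the 9 genes in chondrocytes, the fold was 4.73.

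**Figure D4:**
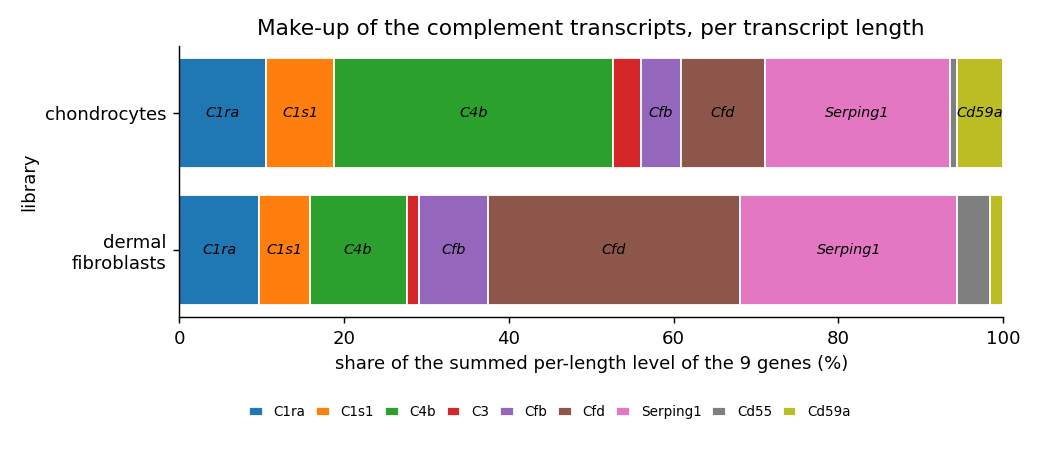
Share of each gene in the summed RPKM of the 9 complement genes (%), in chondrocytes (top bar) and dermal fibroblasts (bottom bar), 1 library each. The largest share passes from *C4b* (33.8%) in chondrocytes to *Cfd* (30.7%) in dermal fibroblasts.

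Of the wider pathway, 49 further genes had a row and 29 of them had at least 10 counts in 1 library or both. Of these 29, 7 were over 2-fold higher in dermal fibroblasts and 1 was over 2-fold higher in chondrocytes. The shares of all genes tested were 16.2% and 11.8%. With the whole interval beyond 2-fold, the numbers were 5 and 1, against 10.8% and 7.21% of all genes tested. The other 21 were within 2-fold, and the median log2 fold of the 29 was -0.38. The wider pathway was therefore nearer to the median of all genes than the 9 genes were, and 18 of its 29 genes had at least 100 counts in 1 library or both, against 9 of 9. Its initiation genes held 5 of the 7. Besides *C2*, *C1rb* and *C1s2*, these were *Masp1*, which encodes a protease of the lectin route (101 and 767 counts, 7.39-fold higher in dermal fibroblasts, interval 6.002 to 9.19), and *Colec12*, a collectin scavenger receptor (2141 and 5797 counts, 2.64-fold higher, interval 2.51 to 2.77). *C1rl*, a C1r-like protease gene, had 208 and 141 counts and lay within 2-fold, higher in chondrocytes at 1.52-fold (interval 1.22 to 1.89). The alternative pathway gene *Cfp*, which encodes properdin, had 122 and 136 counts and a fold of 1.09 (interval 0.844 to 1.40).

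The terminal components that build the membrane pore were nearly undetected. Of 7 such genes, 5 had fewer than 10 counts in both libraries, and the 7 summed to 1.17 CPM in chondrocytes and 2.72 CPM in dermal fibroblasts. *Hc*, which encodes C5, had 2 and 15 counts and was counted as over 2-fold higher in dermal fibroblasts with respect to a floor of 3 counts (named after its value was seen). Of the fluid-phase regulators, *Clu*, which encodes clusterin, was the only pathway gene over 2-fold higher in chondrocytes. It had 473 and 173 counts and was 2.81-fold higher there (interval 2.35 to 3.36). *Cr1l*, which encodes the rodent membrane regulator Crry, had 745 and 1017 counts, a fold of 1.33 (interval 1.21 to 1.46). Per transcript length, *Cr1l* stood at 25.02 RPKM in chondrocytes, above *Cd59a* at 3.55 and *Cd55* at 0.573. It was also above both in dermal fibroblasts, at 33.3 RPKM against 10.7 for *Cd55* and 4.27 for *Cd59a*.

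Of 9 receptor and binding protein genes with at least 10 counts, 8 were within 2-fold. So were 10288 of all 14290 genes tested, with repeated date-like names counted once. *C3ar1*, which encodes the receptor of the fragment C3a, had 247 and 317 counts, a fold of 1.25 (interval 1.05 to 1.48). *C5ar1*, which encodes the receptor of C5a, had 100 counts in each library, a fold of 0.974 (interval 0.730 to 1.30). *Itgax*, a subunit of complement receptor 4 on myeloid cells, was 4.65-fold higher in dermal fibroblasts (45 and 215 counts, interval 3.36 to 6.57). *Itgam* (fold 1.79), *Itgb2* (1.67) and *Cd93* (1.74) were within 2-fold, as were *C1qbp* (0.796) and *Calr* (1.18), whose proteins bind C1q and have other roles inside cells.

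**Figure D5:**
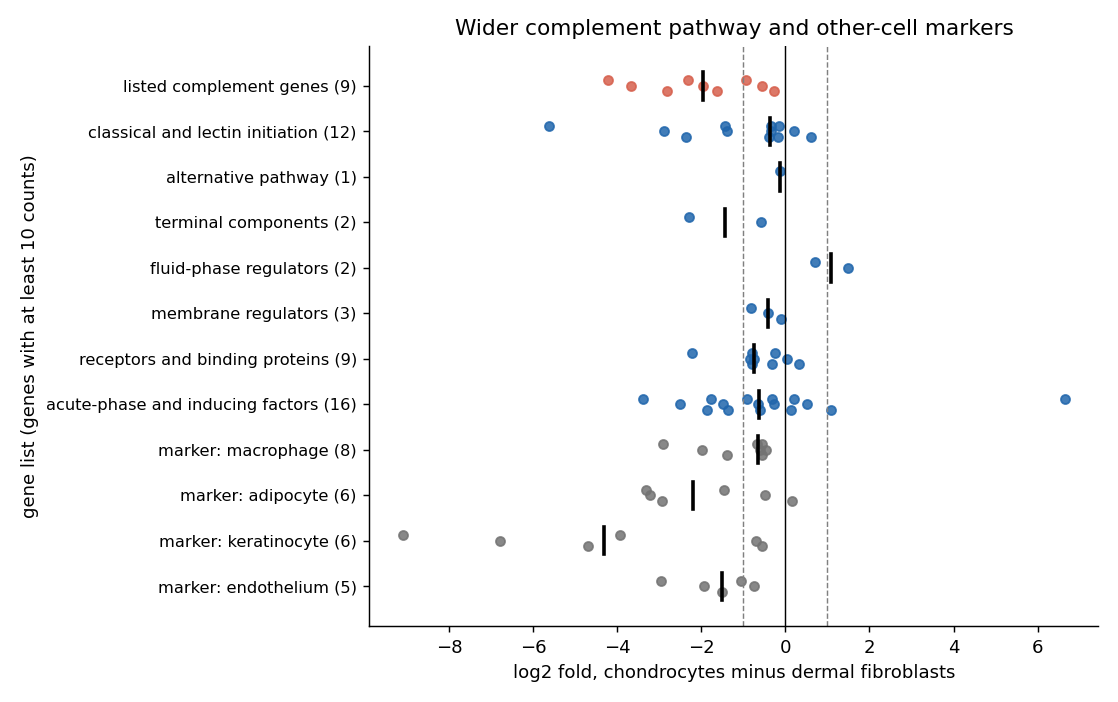
Log2 fold, chondrocytes minus dermal fibroblasts, of each gene with at least 10 counts in the lists named, with the number of genes in brackets and the median as a black bar. The dashed lines mark 2-fold. The listed complement genes (red) have a median of -1.97. The medians of the macrophage, adipocyte, keratinocyte and endothelial markers are -0.64, -2.20, -4.32 and -1.50.

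Complement genes of tissue cells respond to inflammatory cytokines together with acute-phase genes, and a list of these genes and of the factors that act on them held genes higher in each library. Of 16 with at least 10 counts, 6 were over 2-fold higher in dermal fibroblasts and 2 over 2-fold higher in chondrocytes, with a median log2 fold of -0.63. The shares of all genes tested were 16.2% and 11.8%. With the whole interval beyond 2-fold, the numbers were 5 and 2, against 10.8% and 7.21% of all genes tested. *Irf1*, which encodes a transcription factor of the interferon response, had 258 and 737 counts and a fold of 2.78 (interval 2.41 to 3.22). The acute-phase genes *Hp* (610 and 2132 counts, haptoglobin) and *Saa3* (75 and 438 counts, a serum amyloid) were 3.40-fold and 5.69-fold higher there. In the other direction, *Lcn2*, which encodes a lipocalin, gave 884 chondrocyte counts against 9 in dermal fibroblasts and was 101-fold higher in chondrocytes (interval 52.9 to 221). *Ptx3*, which encodes a pentraxin that binds C1q, was 2.13-fold higher in chondrocytes (9459 and 4556 counts, interval 2.06 to 2.21). *Stat3* (fold 1.57, dermal fibroblasts over chondrocytes), *Cebpb* (1.90), *Cebpd* (0.704), *Nfkb1* (0.866), *Nfkbia* (1.20), *Il1r1* (1.25), *Il6st* (1.52) and *Ifngr1* (0.915) were within 2-fold.

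Markers of 2 more cell types of skin were higher in dermal fibroblasts. Of 6 keratinocyte markers, 4 were over 2-fold higher, with a summed level of 8.93 CPM in chondrocytes and 249 CPM in dermal fibroblasts. Of 5 endothelial markers, 4 were over 2-fold higher, with 13.6 and 40.7 CPM, but only 3 had the whole interval beyond 2-fold. The shares of all genes tested were 16.2% and, with the whole interval, 10.8%. No marker of either list was at 0 in either library. Their part in the folds of the 9 genes was not tested. Markers of hepatocytes, the main source of plasma complement, were at or near 0. Of 5, 4 had no count in either library, and *Alb* had 1 and 7 counts (named after its value was seen).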

How the data were processed

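Chondrocytes and dermal fibroblasts were each profiled by RNA-Seq in 1 library. The authors called bases with CASAVA 1.8.2, used TopHat2 2.0.13, Bowtie2 2.2.3 and SAMtools 0.1.19 to map single-end reads (75 bp) from stranded mRNA libraries to mm10, and deposited raw counts for each gene symbol. The counting program, its annotation and its strand setting are not given in the sources used here. In 27 rows the symbol had been turned into a date, and these rows were counted but not named.

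TMM factors were computed with edgeR 4.0.16 and median-of-ratios factors with DESeq2 1.42.0 in R 4.3.3, and folds with scipy 1.17.1, numpy 2.4.6 and pandas 2.3.3 in Python 3.11.15. A floor of 3 counts was applied to each library in a fold, genes with at least 10 counts in 1 library or both were tested against a fold of 2, and no p-value was computed. Ratios of 2 folds have exact conditional 95% intervals. The fold and interval calculations were tested on simulated Poisson counts with the scaling known. That simulation tests neither the TMM factors nor variation between libraries. Named were the 9 genes, their near copies whatever the count, each gene of the pathway and acute-phase lists with at least 100 counts in 1 library or both, and marker genes set beside a result. For 1 gene of the acute-phase list the values are not reported here. The members and lists were chosen with earlier results of these data known. RefSeq positions are those of GRCm38.p6, and lengths and repeated windows come from GENCODE vM1 on NCBIM37.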

Additional observations from a re-analysis of the deposited data

How the results depend on the processing

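Single choices were changed in turn. No paired analysis was possible because there was 1 library per cell type, and for the same reason no library could be left out. All 77 folds of the 9 genes under the alternatives (5 other scalings, floors of 1 and 10 counts, a pseudocount of 1 and, where present, the near copy added) kept their direction, and 75 lay within the counting interval of the reported fold. The 2 others were those of *C4b*, at 1.61 with total counts and 1.35 with *Actb*. The floors of 1 and 10 counts could not change any of these folds, because the lowest count of the 9 genes was 26. The number of complement genes over 2-fold higher in dermal fibroblasts ranged from 4 (a fold over 4) to 7 (total counts, or a fold over 1.5), and their median log2 fold from -2.10 to -1.84.

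For the wider pathway, a fold over 4 left 0 genes higher in chondrocytes, and a fold over 1.5 gave 12 genes higher in dermal fibroblasts and 3 higher in chondrocytes. For all genes, a fold over 4 gave 929 genes higher in dermal fibroblasts and 713 higher in chondrocytes, against 2319 and 1684, and a fold over 1.5 gave 3510 and 2851. With the whole interval beyond 2-fold, 1031 were higher in chondrocytes. Among genes with at least 100 counts, a setting chosen after seeing the data, the numbers were 1485 and 981. Total counts moved log2 folds by -0.14 and *Actb* by 0.12. Depth limited *Cd55* most, at 26 counts in chondrocytes.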
